A study of Mus musculus with 15 samples.

Results

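Germinal centre (GC) B cells were compared with naive B cells from the spleens of immunised mice. All 3 libraries titled GC (A, B and C) and all 3 titled naive (A, B and C) entered, 6 of the 15 RNA sequencing libraries of the series, and every gene in the table was a candidate. The other 9 libraries came from B cells cultured for 5 days. They entered the filter on low counts, the scaling and the estimate of the spread of each gene. Their levels are given only in places. The study asked, by its title, how help from T cells affects the plasticity of GC B cells, and the uncultured GC and naive cells are its starting states.

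Both groups came from wild-type male mice that were 3 months old, 9 days after immunisation with sheep red blood cells, an antigen that drives GCs in the spleen. B cells were first enriched magnetically by removal of other cells, and the 2 populations were then sorted. The surface markers of the sort are not given in the sources used here. By their labels, the cells of both groups had not been cultured. The labels do not say which animals the letters A, B and C stand for, or whether mice were pooled, so the p-values measure the spread between libraries only.

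Naive follicular B cells are resting cells that recirculate through blood, spleen and lymph nodes, guided by receptors for chemokines and lipids. After they meet antigen and receive T cell help, some enter a GC, a cluster of fast-dividing B cells held in the follicle. There the antibody genes are mutated, and cells are selected by how well they take up antigen and present it to T cells. Cycling and mutation are concentrated in the dark zone of the GC, and antigen capture and T cell contact in the light zone.

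The 6 libraries held 28155640 to 35711317 counts each, and the naive libraries were much less alike than the GC libraries. Across genes, log2 CPM (counts per 1000000, scaled by trimmed mean of M values, with 1 added) correlated between 0.988 and 0.992 among the GC libraries. Naive A and C correlated at 0.973, and naive B with them at 0.924 and 0.927. Genes with at least 1 count numbered 13920, 11523 and 18866 in naive A, B and C and 18036, 17855 and 16385 in GC A, B and C. The low end of the range was thin in naive A and B: only 816 and 606 genes held 1 to 20 counts there, against 5938 in naive C and 3435 to 5105 in the GC libraries. In naive B, 85 of the 8148 genes with at least 10 CPM in both other naive libraries had no count at all, against 0 in naive A and 2 in naive C. A count of 0 in naive A or B is therefore not read below as absence of the transcript. Between 73.5% and 83.5% of the genes with 1 to 20 counts held an even number of counts, and whether both reads of a pair were counted is not given in the sources used here, so floors and counting intervals below cover counting error only and may be too narrow. The median standard deviation of a tested gene was 0.40 in naive and 0.18 in GC libraries on the log2(CPM + 1) scale.

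Genes that set 1 naive library at least 8-fold apart from both others, among those with a naive mean of at least 5 CPM, showed which library differed. In naive B 309 genes lay that far below the others and 26 above, in naive A 24 and 3, and in naive C 34 and 5. Hspa1b and Hspa1a, near-identical genes for the inducible heat shock protein HSP70, were high in naive A alone, with Hspa1b at 1400.2, 89.8 and 109 CPM in naive libraries A, B and C and 10.7, 1.75 and 7.58 CPM in GC. Tmem184b (31.9, 25.7 and 376 CPM) and its neighbour on chromosome 15 Csnk1e, a kinase gene (18.7, 2.96 and 161 CPM), were high in naive C alone. Nfil3 and Atf3, transcription factor genes, were high in naive B alone, with Atf3 at 1.43, 39.5 and 0.347 CPM in naive libraries A, B and C. Trim12a, Gm1966 and Trim5, genes on chromosome 7, had no count in naive B and 93.3 and 177, 70.7 and 167, and 58.0 and 109 CPM in naive A and C (Trim5 was named after its values were seen). The 380 genes that stood apart in either direction included 375 that were tested, of which 11 were called higher and 41 lower in GC, 13.9% in all against 34.5% of all genes tested. No cause of these differences between naive libraries was tested.

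**Figure D1:**
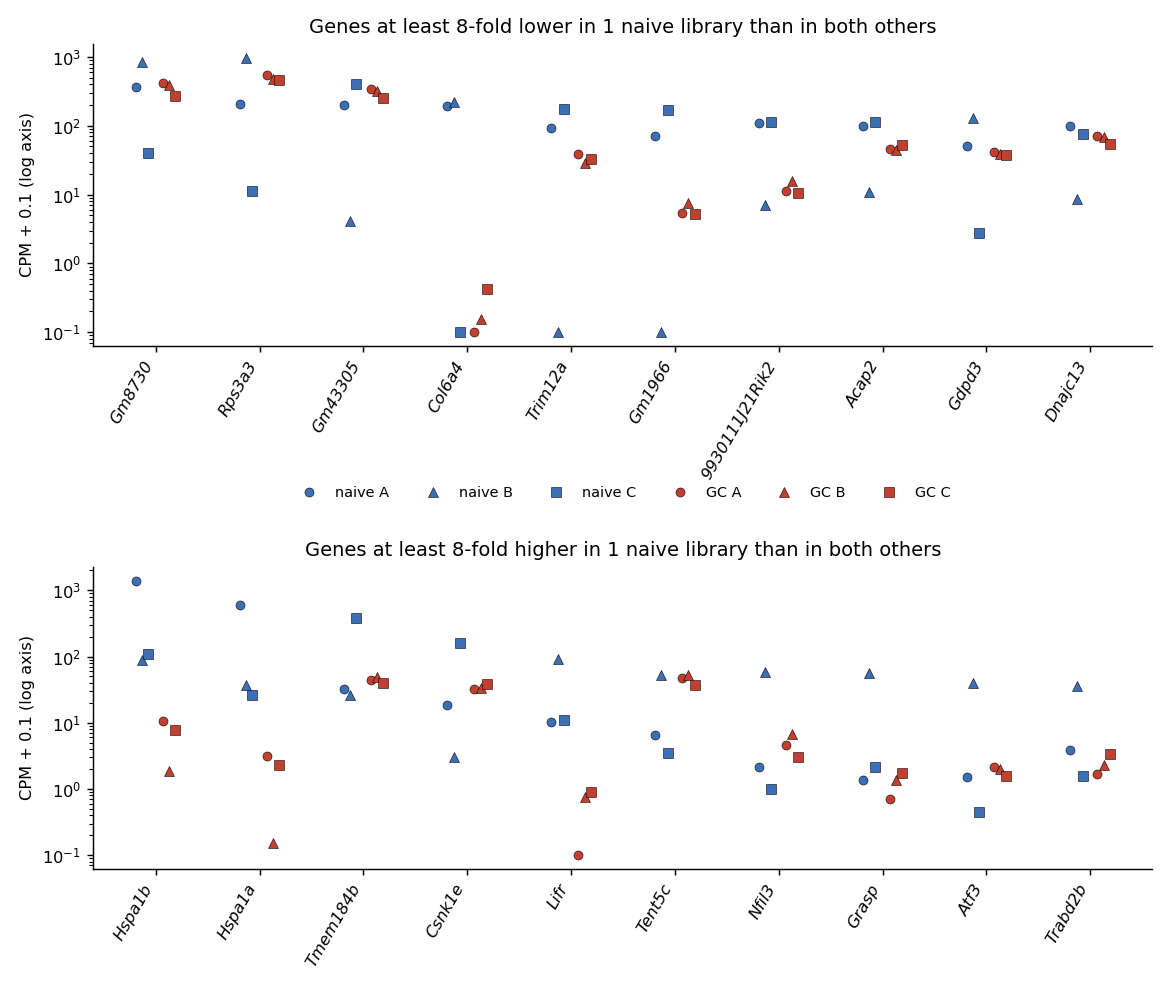
Level in CPM plus 0.1, on a log axis, of the 10 most abundant genes at least 8-fold lower (top) and the 10 at least 8-fold higher (bottom) in 1 naive library than in both others. Each point is 1 library, blue for naive and red for GC, with circles, triangles and squares for A, B and C. The GC libraries lie close together for most of these genes, while naive B has no count of Trim12a and Gm1966 and naive A is high in Hspa1a and Hspa1b.

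With that spread, 3076 of 17144 genes tested were higher in GC than in naive cells (17.9%) and 2835 were lower (16.5%), by edgeR's quasi-likelihood test on all 15 libraries with Benjamini-Hochberg adjustment and a threshold of 0.05. The median log2 fold change, GC minus naive, was 0.0031 over all genes tested. Of the higher genes 2426 had a mean of at least 5 CPM in GC, and 412 had no count in any naive library. Of the lower genes 2537 had a naive mean of at least 5 CPM, and 171 had no count in any GC library. In 25.3% of the genes tested every GC library lay above every naive library, and in 18.4% every GC library lay below. Counts of list members given below are to be read beside these shares of all genes. A fit of the 6 compared libraries alone tested 14408 genes and called 2286 higher and 1807 lower, with a median log2 fold change of 0.118. Of these, 2189 higher and 1747 lower genes were also called by the fit of all libraries. Without naive B, the 5 remaining libraries gave 3355 higher (21.5%) and 3223 lower (20.6%), or 42.1% in either direction. With the cultured libraries kept, 36.7% were called without naive B. Without naive C the counts were 4261 and 2445, and without GC A 2731 and 1849. Genes named below as not called, and others that are not among the 4 largest changes of a list in their direction, were chosen after their values were seen. In bulk RNA, fewer cells of a kind and less RNA per cell cannot be told apart, in any of these comparisons.

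**Figure D2:**
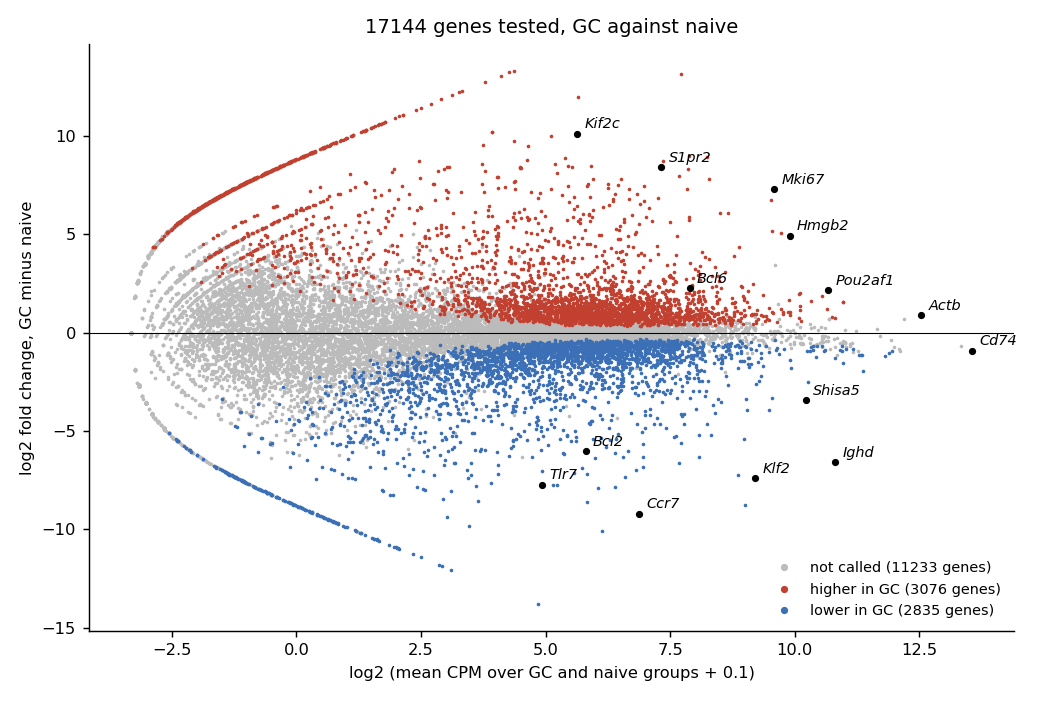
The log2 fold change of GC minus naive against the log2 mean CPM of both groups (plus 0.1), 1 point per gene tested, red where higher in GC (3076), blue where lower (2835) and grey where not called. The curved lines of points at the left are genes with no count in 1 of the groups. Mki67 and Hmgb2 stand out among abundant genes above 0, and Ighd and Klf2 below it.

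The 4 genes that mark the cells followed their labels in all 6 libraries, which is a check of the labels and not a finding where the sort used related markers. Bcl6, the repressor that GC formation requires (ENSMUSG00000022508, GRCm38 chr16:23965052-23988852), read 70.1, 57.1 and 119 CPM in naive and 421, 369 and 391 CPM in GC. Mybl1, a transcription factor of cycling GC B cells (chr1:9667415-9700209), read 1.10, 0 and 3.26 CPM in naive and 453, 498 and 435 CPM in GC. For both, every GC library lay above every naive library. Ccr7, the receptor that draws B cells toward the T cell zone (chr11:99144196-99155077), read 241, 278 and 186 CPM in naive and 0.191, 0.819 and 0.132 CPM in GC. Klf2, a factor of quiescence and recirculation (chr8:72319033-72321656), read 1218, 1584 and 735 CPM in naive and 5.41, 5.18 and 10.2 CPM in GC. Both were lower in each GC library than in any naive library, by log2 fold changes of -9.20 and -7.41 (adjusted p = 2.87e-05 and 7.26e-07). Bcl6 rose by 2.26 and Mybl1 by 8.32 on the log2 scale (adjusted p = 0.000376 and 1.48e-05). The general B cell gene Cd79b, of the antigen receptor, was abundant throughout, at 1664, 2236 and 1977 CPM in naive and 1686, 1557 and 1462 CPM in GC.

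Of 20 transcription factors of the GC programme that were tested, 7 rose and 5 fell, with a median log2 fold change of 0.35. These are 35% and 25%, beside 17.9% and 16.5% of all genes. The largest rise after Mybl1 was in E2f8, a repressor of the E2F family active in dividing cells, at 2.31, 2.58 and 0.555 CPM in naive and 97.7, 107 and 98.9 CPM in GC (log2 fold change 5.79, SE 0.55, adjusted p = 2.70e-06). Mef2b, which activates Bcl6 in GC cells, read 12.3, 11.3 and 2.88 CPM in naive and 455, 489 and 449 CPM in GC, an increase of about 52.6-fold (SE 0.93 on the log2 scale, adjusted p = 0.000432). Pou2af1, the coactivator OCA-B, was abundant in both states and rose by 2.16 on the log2 scale, from 580.2, 522 and 688 CPM in naive to 2879, 2572 and 2543 CPM in GC (adjusted p = 1.40e-05). For each of E2f8, Mef2b and Pou2af1 the groups did not overlap.

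Among the factors that fell, Hhex, a homeobox gene, read 148, 159 and 206 CPM in naive and 4.71, 4.86 and 5.01 CPM in GC (log2 fold change -5.14, SE 0.54, adjusted p = 6.89e-06). Lmo2, an adaptor that bridges transcription factors, fell by 1.54 (log2, adjusted p = 5.73e-06), from 307, 464 and 335 to 134, 120.2 and 125 CPM. Foxp1, which maintains mature resting B cells, went from 486, 332 and 463 to 165, 147 and 159 CPM (log2 fold change -1.44, adjusted p = 0.000229), and the B lineage factor Ebf1 from 337, 304 and 277 to 168, 131 and 173 CPM (-0.96, adjusted p = 0.0005). No GC library reached the lowest naive library for any of these.

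Genes of quiescence and of the follicular state fell in 13 of 16 tested members and rose in 2, with a median of -2.08. In the 5 libraries without naive B the counts were 13 and 2, and the number that rose was 1 on leaving out naive B, or GC C, from the fit of all libraries. Klf3, a repressor related to Klf2, read 124, 73.7 and 142 CPM in naive and 0.446, 0.982 and 0.923 CPM in GC (log2 fold change -7.16, SE 0.70, adjusted p = 5.14e-06). Klf4, which restrains B cell proliferation, read 199, 136 and 60.4 CPM in naive and 0.764, 0.382 and 0.494 CPM in GC (log2 fold change -7.91, SE 1.28, adjusted p = 0.000436). Both were near 0 in every GC library and above 60 CPM in every naive library. Tsc22d3, the glucocorticoid-induced leucine zipper gene, read 569.6, 875 and 460.1 CPM in naive and 44.1, 33.6 and 34.7 CPM in GC, with a log2 fold change of -4.08 (adjusted p = 1.75e-07). Cdkn1b, which encodes the cell cycle inhibitor p27, was not among the 4 largest falls, but the GC libraries lay at 19.2, 18.8 and 16.0 CPM against 160.2, 92.5 and 179 CPM in naive (adjusted p = 3.22e-07). Zbtb20, a zinc finger repressor related to Bcl6, went the other way, at 29.1, 26.4 and 35.3 CPM in naive and 95.6, 88.4 and 109 CPM in GC (adjusted p = 0.00958).

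**Figure D3:**
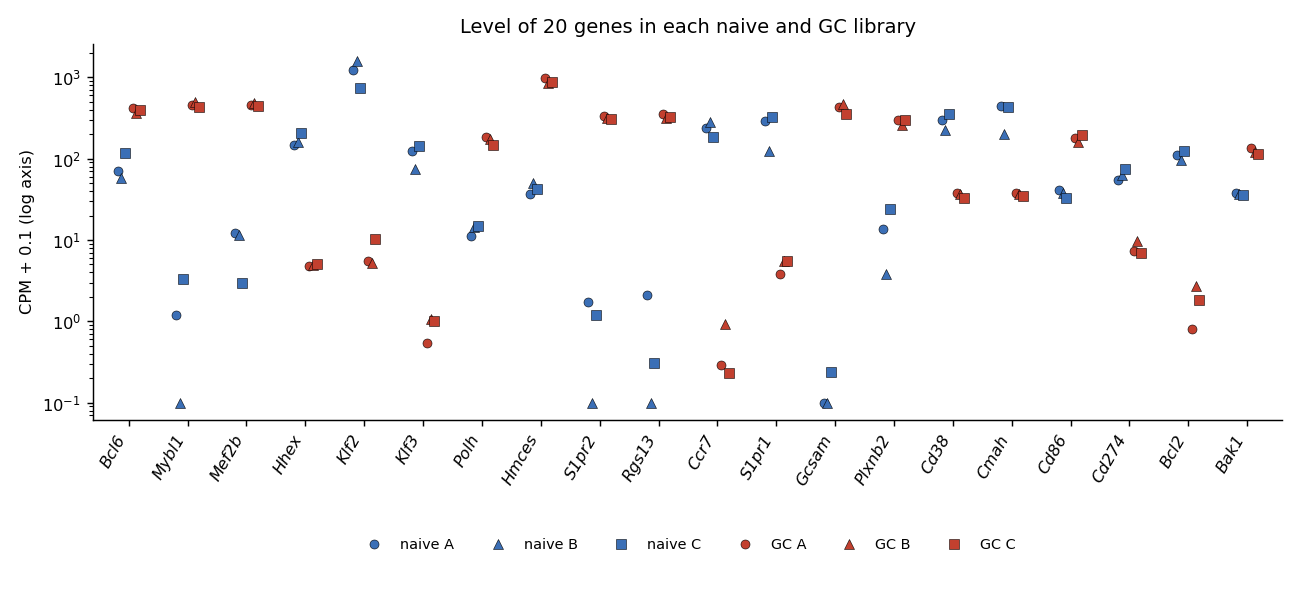
Level in CPM plus 0.1, on a log axis, of 20 genes from the transcription factor, antibody mutation, positioning, surface, help and survival lists. Each point is 1 library, blue for naive and red for GC, with circles, triangles and squares for A, B and C. The red and blue points do not overlap for any of the 20 genes.

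Genes that mutate and repair antibody DNA rose in 13 of 24 tested members and fell in none, median 0.98. In 19 of the 24 every GC library lay above every naive library, as in 25.3% of all genes. The 5 libraries without naive B gave 14 higher and 2 lower. Hmces, which shields abasic sites in DNA, read 37.0, 50.8 and 42.7 CPM in naive and 973, 856 and 866 CPM in GC (log2 fold change 4.37, SE 0.92, adjusted p = 0.00286). Exo1, a nuclease of mismatch repair, read 2.69, 0 and 3.82 CPM in naive and 39.6, 38.9 and 45.7 CPM in GC (log2 fold change 4.25, SE 0.89, adjusted p = 0.00254). Both genes were higher in each GC library than in any naive library.

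Other repair genes moved to different degrees. Polh, the error-prone polymerase eta that writes A and T mutations, read 11.2, 14.3 and 14.8 CPM in naive and 186, 174 and 146 CPM in GC (log2 fold change 3.65, SE 0.18, adjusted p = 2.81e-09). Msh6, a subunit of the mismatch sensor, read 53.4, 68.9 and 56.4 CPM in naive and 231, 219 and 259 CPM in GC (log2 fold change 1.99, SE 0.13, adjusted p = 4.17e-08). Ung, which removes uracil from DNA, read 4.56, 34.1 and 10.5 CPM in naive and 57.9, 57.3 and 57.6 CPM in GC. It was called in the fit of all libraries (adjusted p = 0.0111) and not in the 6 libraries alone (0.0696, range over all alternatives 1.90e-06 to 0.0696). Fam72a, a regulator of Ung, had the same pattern, with 0, 5.17 and 0.555 CPM in naive and 23.8, 23.0 and 26.0 CPM in GC (adjusted p = 0.0162, and 0.101 in the 6 libraries alone, range 2.56e-05 to 0.148). The switching factor Trp53bp1 was at 79.4, 24.4 and 72.7 CPM in naive and 37.4, 38.1 and 43.8 CPM in GC and was not called in the fit of all libraries (adjusted p = 0.173, range 0.000304 to 0.606). It was called lower without naive B and with limma voom and quality weights.

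Among the heavy chain constant region genes, IgD fell and the switched IgG classes rose. Ighd fell from 3437, 2962 and 4282 to 35.9, 35.7 and 38.8 CPM (log2 fold change -6.60, SE 0.38, adjusted p = 1.39e-08). Ighg1 rose from 42.0, 74.2 and 4.61 to 1586, 1349.5 and 1432 CPM (log2 fold change 5.18, SE 0.92, adjusted p = 0.000835). Ighg2b went from 71.5, 55.5 and 22.2 to 1194, 2151 and 1562 CPM (log2 5.04, adjusted p = 0.0102) and Ighg2c from 2.69, 0 and 2.25 to 226, 688 and 304 CPM (log2 7.93, adjusted p = 0.00285). Ighe, the IgE gene, had no count in any naive library and 17.4, 15.9 and 18.3 CPM in GC, at least 165-fold higher against a floor of 3 counts in naive C alone, the naive library whose low range was not thin. Ighm was not called in the fit of all libraries (adjusted p = 0.524) and was lower in the fit of the 6 (0.0122, range 0.00034 to 0.691), at 4946, 5749.6 and 6036 CPM in naive and 3281, 3057 and 3028 CPM in GC. Of 12 constant region genes 5 rose and 1 fell, or 8 and 3 in the 6 libraries alone, where the spread of the cultured libraries does not enter. The share of all counts on immunoglobulin genes was 1.51%, 1.31% and 1.84% in naive and 1.64%, 1.94% and 1.56% in GC, which overlapped (two-sided exact permutation p = 0.4, n = 3 and 3, smallest possible 0.1). These genes are near-identical in parts, and how reads that fit several genes were counted is not given in the sources used here, so the split between the IgG genes is uncertain.

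Plasma cell markers bear on the same genes. Jchain, which joins IgM and IgA units, stood at 27.8, 6.46 and 6.14 CPM in naive and 1499, 1588 and 1267 CPM in GC (adjusted p = 0.0464, and 0.000758 in the 6 libraries alone, range 9.16e-07 to 0.147). Its call in the fit of all libraries was lost on leaving out any 1 of the 6 libraries. Of the 12 plasma cell markers tested 5 rose and 1 fell (41.7% and 8.33%), beside 17.9% and 16.5% of all genes. In 9 of the 12 every GC library lay above every naive library, as in 25.3% of all genes. The number higher was 7 in the 6 libraries alone and 4 with naive B left out of the fit of all libraries. Summed over the 12 markers the libraries reached 569 to 641 CPM in naive and 2148 to 2679 CPM in GC. The largest term of the sum in GC was Jchain, while Prdm1, the master regulator of plasma cells, read 2.36, 0 and 1.66 CPM in naive and 2.48, 9.99 and 5.08 CPM in GC and Sdc1, their surface proteoglycan, 5.17, 3.81 and 9.05 CPM in naive and 2.55, 6.77 and 3.49 CPM in GC, neither of them called (adjusted p = 0.325 and 0.504). The part of plasma cells in the immunoglobulin result was not tested.

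Receptors that place cells in the spleen changed in opposite directions. S1pr2, which holds B cells in the GC, read 1.65, 0 and 1.11 CPM in naive and 336, 319 and 304 CPM in GC (log2 fold change 8.41, SE 0.79, adjusted p = 4.74e-06). Gna13, the G protein subunit that S1pr2 signals through, read 164, 156 and 171 CPM in naive and 306, 317 and 264 CPM in GC (log2 fold change 0.85, SE 0.14, adjusted p = 0.000267). Arhgef1, the next component of that route, fell from 1424, 1590.1 and 1814 to 766, 736 and 996 CPM (log2 fold change -0.95, SE 0.16, adjusted p = 0.000413). Among regulators of G protein signalling, Rgs13 read 2.03, 0 and 0.208 CPM in naive and 349.8, 312 and 325 CPM in GC (log2 fold change 8.70, SE 1.25, adjusted p = 0.00247). Rgs2 rose by 1.46 and Rgs14 fell by 1.35 on the log2 scale (adjusted p = 0.0102 and 6.72e-05). S1pr2 and Rgs13 had no count in naive B and at most 2.03 CPM in the other naive libraries. Of the 16 confinement and G protein signalling genes tested, 4 rose and 3 fell (5 fell without naive B), median 0.32, against 17.9% and 16.5% of all genes.

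Homing and migration receptors fell in 13 of 21 tested and rose in 2, median -2.39, and without naive B in 15 and 3. S1pr1, which lets cells leave lymphoid tissue, read 287, 125 and 321 CPM in naive and 3.69, 5.35 and 5.34 CPM in GC (log2 fold change -5.67, SE 0.76, adjusted p = 9.67e-05). Ccr6, a chemokine receptor of naive and memory B cells, read 104, 43.1 and 95.8 CPM in naive and 0.0637, 1.80 and 1.45 CPM in GC (log2 fold change -6.18, SE 0.75, adjusted p = 2.44e-05). Neither gene exceeded 6 CPM in a GC library. Gpr183, the oxysterol receptor EBI2 that takes activated B cells to the outer follicle, fell from 90.6, 248 and 118 to 4.27, 2.24 and 3.82 CPM (adjusted p = 2.39e-07). The chemokine receptors that sort cells between the GC zones were not called in the fit of all libraries. Cxcr4, of the dark zone, read 376, 295 and 164 CPM in naive and 355, 319.5 and 303 CPM in GC (adjusted p = 0.763, range 0.0905 to 1). Cxcr5, of the follicle and light zone, read 362, 156 and 416 CPM in naive and 209, 201 and 214 CPM in GC (adjusted p = 0.105, range 0.000171 to 0.516), and was called lower without naive B and with limma voom and quality weights. Those that rose were the adhesion genes Itgb1, from 64.2, 30.1 and 42.6 to 178, 161 and 158 CPM, and Cd44, from 37.3, 14.2 and 46.0 to 109, 102 and 96.7 CPM (adjusted p = 6.98e-05 and 0.000643).

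Surface and glycan genes that distinguish GC cells moved both ways, 6 of 20 up and 8 down (30% and 40%), beside 17.9% and 16.5% of all genes. Gcsam, an adaptor that limits GC cell movement, had 4 counts in the naive group, all in naive C, and 432, 465 and 358 CPM in GC (adjusted p = 9.33e-05). Nt5e, the ectoenzyme CD73, read 1.04, 0 and 1.66 CPM in naive and 54.5, 55.6 and 38.1 CPM in GC (log2 fold change 5.77, SE 1.15, adjusted p = 0.00159). Efnb1, the ligand ephrin B1, read 8.02, 6.53 and 2.50 CPM in naive and 119.9, 128 and 117 CPM in GC (log2 4.42, adjusted p = 0.000247). Plxnb2, a plexin receptor, read 13.7, 3.67 and 23.8 CPM in naive and 299.6, 262 and 302 CPM in GC (log2 4.39, adjusted p = 1.65e-05). In each case all GC libraries exceeded all naive ones. Fas, the death receptor commonly used to sort GC cells, was at 3.46, 14.3 and 5.10 CPM in naive and 154, 134 and 166 CPM in GC (adjusted p = 5.93e-05). Cmah, the enzyme whose loss exposes the sialic acid epitope GL7, read 448, 202 and 429 CPM in naive and 37.8, 36.8 and 34.3 CPM in GC (log2 fold change -3.31, SE 0.45, adjusted p = 7.46e-05). Cd38, low on mouse GC cells, read 302, 228 and 350.2 CPM in naive and 38.0, 36.8 and 32.6 CPM in GC (log2 fold change -3.04, SE 0.21, adjusted p = 8.62e-08). Cd55, an inhibitor of complement, read 626, 479.6 and 751 CPM in naive and 19.0, 15.2 and 16.2 CPM in GC (log2 fold change -5.20, SE 0.27, adjusted p = 5.55e-09). Where the sort used such a marker, its difference was set by the sort.

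The genes through which B cells receive T cell help and cytokines were mostly lower: 12 of 23 fell and 2 rose, median -1.67, with 18 and 3 in the 5 libraries without naive B. The costimulatory ligands differed in direction. Cd86 read 40.7, 37.7 and 32.7 CPM in naive and 181, 158 and 192 CPM in GC (log2 fold change 2.26, SE 0.23, adjusted p = 2.95e-06). Cd274, the inhibitory ligand PD-L1, read 54.0, 62.9 and 74.7 CPM in naive and 7.23, 9.63 and 6.79 CPM in GC (log2 fold change -3.02, SE 0.19, adjusted p = 2.39e-08). Icosl, the ligand for ICOS on follicular helper T cells, was at 556, 576 and 743 CPM in naive and 151, 154 and 163 CPM in GC, called in the 6 libraries (0.00018) and not in the fit of all (adjusted p = 0.321, range 5.23e-07 to 0.495). Cd40 itself fell from 167, 231 and 206 to 76.4, 96.0 and 93.3 CPM (adjusted p = 0.00247). Among cytokine receptors, Il5ra, Ifnar2 and Il10ra fell, with log2 fold changes of -3.74, -2.62 and -2.47 (adjusted p = 0.000411, 1.21e-05 and 0.000798), and Il21r, the receptor for the main GC cytokine, was not called at 317, 355 and 391 CPM in naive and 292, 296 and 291 CPM in GC (adjusted p = 0.221).

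Genes that respond to CD40 and NF-kB, which rise in the light zone, were lower in 17 of 24 and higher in 1, median -1.45. Without GC A the number lower was 11, and without naive A the number higher was 0. Myc, the driver of cell growth that marks positively selected cells, read 199.7, 435 and 135 CPM in naive and 29.3, 38.3 and 26.6 CPM in GC (log2 fold change -3.03, SE 0.41, adjusted p = 6.71e-05). Tnfaip3, the feedback inhibitor A20, read 143, 493 and 86.6 CPM in naive and 30.8, 33.7 and 30.9 CPM in GC (log2 fold change -2.92, SE 0.54, adjusted p = 0.00106). The early activation marker Cd69 read 329.5, 379.6 and 149 CPM in naive and 14.1, 14.1 and 14.3 CPM in GC (log2 fold change -4.33, SE 0.29, adjusted p = 5.52e-08). All GC libraries lay below all naive ones for the 3 genes, and of the naive libraries naive B was the highest and naive C the lowest. The NF-kB subunits themselves fell, with log2 fold changes of -1.13 for Nfkb1, -1.53 for Nfkb2, -1.05 for Rel and -1.36 for Relb (adjusted p = 0.000199, 0.0042, 0.00119 and 0.00108).

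Antigen receptor signalling genes were mostly not called, with 2 of 30 higher and 8 lower, against 17.9% and 16.5% of all genes. The number higher was 1 without naive A and 5 without naive C. Vav3, an exchange factor, read 16.7, 29.4 and 17.8 CPM in naive and 0.382, 0 and 0 CPM in GC (log2 fold change -7.38, SE 0.87, adjusted p = 1.47e-05), with no count in GC B or C. Its relative Vav1 was at 259, 256 and 298 CPM in naive and 322, 306 and 358 CPM in GC and was not called in the fit of all libraries (adjusted p = 0.0956, and 0.0207 to 0.279 over the alternatives). It was called higher by DESeq2, without naive C and without GC B. Ptpn22, a phosphatase that dampens receptor signals, read 47.4, 40.7 and 46.3 CPM in naive and 5.06, 6.17 and 6.20 CPM in GC (log2 fold change -2.95, SE 0.44, adjusted p = 0.000108). Malt1, a protease that links the receptor to NF-kB, fell by 1.54 (log2, adjusted p = 0.000604), and Bcl10, its binding partner, was not called (log2 -0.28, adjusted p = 0.179). Lcp2, the adaptor SLP-76, rose to 66.0, 57.5 and 60.3 CPM from 0, 6.80 and 0.416 CPM (log2 fold change 4.69, SE 1.03, adjusted p = 0.00371).

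Class II antigen presentation genes fell in 9 of 14 and rose in 1 (2 without naive B), median -0.95. These are among the most abundant transcripts of a B cell. Cd74, the invariant chain, read 11949.7, 21407 and 14131 CPM in naive and 8815, 8773 and 7351 CPM in GC (log2 fold change -0.93, SE 0.21, adjusted p = 0.00311). H2-Aa, a class II alpha chain, read 4099, 6343 and 4584 CPM in naive and 2351, 2219.7 and 1905 CPM in GC (log2 fold change -1.21, SE 0.18, adjusted p = 0.000131). The beta chains H2-Ab1 and H2-Eb1 fell, with log2 fold changes of -0.94 and -1.03 (adjusted p = 0.00115 and 0.00108). Naive B had the highest level of all 4. The peptide loading inhibitor gene H2-Oa read 191, 440.1 and 205 CPM in naive and 76.7, 94.8 and 80.9 CPM in GC (log2 fold change -1.73, SE 0.38, adjusted p = 0.00305). The protease gene Ctss fell by 1.32 (log2, adjusted p = 1.42e-05), and Lgmn, another lysosomal protease, rose by 0.78 (log2, adjusted p = 0.00275).

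Class I antigen presentation genes were also among the largest falls in CPM. H2-K1 read 3312, 5438 and 3805 CPM in naive and 1049.6, 1221 and 998 CPM in GC (log2 fold change -1.94, SE 0.23, adjusted p = 1.25e-05). H2-D1 read 2546, 3376 and 2959.7 CPM in naive and 1042, 1139.7 and 912 CPM in GC (log2 fold change -1.52, SE 0.21, adjusted p = 5.58e-05). H2-Q6, of the Qa-2 region, read 1570.5, 2894 and 1812 CPM in naive and 305, 417 and 367 CPM in GC (log2 fold change -2.53, SE 0.23, adjusted p = 1.14e-06). Together with H2-Q7 they took 0.873%, 1.18% and 0.957% of all counts in naive and 0.247%, 0.297% and 0.248% in GC, without overlap (two-sided exact permutation p = 0.1, n = 3 and 3, the smallest possible). The ranking of falls took only called genes whose groups did not overlap. The lack of overlap and the p-value of this share were therefore largely set by the choice of genes. H2-Q6 and H2-Q7 are near-identical, so their separate values are uncertain. No test compared class I with class II.

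Of 22 innate sensing genes 10 fell and 1 rose (2 without naive B), or 45.5% and 4.55%, beside 16.5% and 17.9% of all genes. Tlr7, the endosomal sensor of single-stranded RNA, read 74.9, 56.7 and 50.5 CPM in naive and 0.127, 0.382 and 0.330 CPM in GC (log2 fold change -7.73, SE 0.42, adjusted p = 7.46e-09). Irak3, an inhibitor of Toll-like receptor signals, read 55.6, 56.3 and 56.2 CPM in naive and 0.573, 0.764 and 2.57 CPM in GC (log2 fold change -5.43, SE 0.54, adjusted p = 2.72e-06). Ddx58, the cytosolic RNA sensor RIG-I, read 127, 70.1 and 143 CPM in naive and 6.69, 7.91 and 9.86 CPM in GC (log2 fold change -3.80, SE 0.62, adjusted p = 0.000425). Tlr2, a surface receptor for bacterial lipoproteins, read 10.4, 4.83 and 15.7 CPM in naive and 0.764, 2.40 and 0.330 CPM in GC (adjusted p = 0.00682). The endosomal chaperone Unc93b1 and the DNA sensor Tlr9 fell, with log2 fold changes of -1.07 and -1.66 (adjusted p = 0.00077 and 0.00253). Tlr7 had the largest fold change of the 10 that fell. The adaptor Myd88 was not called in the fit of all libraries, at 37.2, 51.3 and 48.8 CPM in naive and 56.9, 54.8 and 55.2 CPM in GC (adjusted p = 0.29, range 0.0355 to 0.656). It was called higher with limma voom and quality weights.

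Single genes of survival and of death changed, and the share of the list that fell was near that of all genes. Bcl2, the main survival factor of resting B cells, read 112, 95.5 and 123 CPM in naive and 0.700, 2.62 and 1.71 CPM in GC (log2 fold change -6.02, SE 0.49, adjusted p = 4.38e-07). Bcl2l1, which encodes BCL-XL, was at 2.58, 0.136 and 6.94 CPM in naive and 17.0, 22.5 and 18.5 CPM in GC, called in the fit of all libraries (adjusted p = 0.0127) and not in the 6 alone (0.103, range 0.00017 to 0.13). Mcl1, the survival factor GC cells depend on, was not called, at 753, 711 and 1010.5 CPM in naive and 764, 711 and 646 CPM in GC (adjusted p = 0.283). On the death side, the effector Bak1 read 38.1, 36.2 and 36.0 CPM in naive and 134, 119 and 113 CPM in GC (log2 fold change 1.73, SE 0.15, adjusted p = 7.75e-07). Its partner Bax was not called, at 61.9, 127 and 58.7 CPM in naive and 64.6, 73.7 and 57.0 CPM in GC (adjusted p = 0.302). Cflar, an inhibitor of death receptor signals, fell from 131, 70.2 and 109.6 to 40.1, 42.8 and 49.3 CPM (adjusted p = 0.00109). In all 8 of 20 rose and 3 fell (40% and 15%), beside 17.9% and 16.5% of all genes.

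Cell division genes showed the most uniform rise of the lists. All 30 mitosis genes tested were higher, with a median log2 fold change of 6.31 against 0.0031 over all genes tested, and all 30 were higher in the 6 libraries alone and in the 5 without naive B, and 28 by DESeq2. Kif2c, a kinesin that corrects chromosome attachment, read 0, 0 and 0.277 CPM in naive and 104, 94.6 and 98.4 CPM in GC (log2 fold change 10.10, SE 0.60, adjusted p = 1.83e-08). Hmmr, a spindle protein, read 0, 0 and 0.832 CPM in naive and 90.5, 87.1 and 97.9 CPM in GC (log2 fold change 8.43, SE 0.85, adjusted p = 8.68e-06). Ttk, a kinase of the spindle checkpoint, read 0, 0 and 0.832 CPM in naive and 61.1, 66.6 and 95.0 CPM in GC (log2 fold change 8.11, SE 0.91, adjusted p = 1.94e-05). In naive A and B these 3 genes had no count. Ube2c, which marks cyclins for destruction, read 1.76, 0 and 0.555 CPM in naive and 181, 183 and 179 CPM in GC (log2 fold change 7.81, SE 0.72, adjusted p = 4.21e-06). The smallest rise was in Cenpa, the centromere histone, at 21.2, 76.1 and 48.8 CPM in naive and 173, 164 and 152 CPM in GC (log2 fold change 1.74, SE 0.33, adjusted p = 0.000892). Mki67, the proliferation marker Ki-67, read 8.96, 11.4 and 9.23 CPM in naive and 1355, 1543 and 1673 CPM in GC (log2 fold change 7.27, SE 0.30, adjusted p = 7.37e-10).

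Because all 30 genes of this list rose, the promoters of 4 are shown, 250 bases before to 50 after the first start that RefSeq lists for each gene (GRCm38.p6). They are among the called members with the largest rises that hold the cell cycle genes homology region (CHR), a short element known from promoters of late cell cycle genes. CHR was searched as TTTGAA or TTCGAA on both strands and is in capitals, read as TTCAAA where it lies on the opposite strand. It lies 103 bases before the start of Kif2c, 8 after that of Hmmr, 7 after that of Ttk and 29 before that of Ube2c. The RefSeq start used for Kif2c is 3867 bases inside the gene as GENCODE M21 places it. The Kif2c window (chr4:117178723-117179022, minus strand) and its CHR match therefore lie within the gene. The other windows are at chr11:40733388-40733687 (minus), chr9:83834439-83834738 (plus) and chr2:164769679-164769978 (plus).
Kif2c: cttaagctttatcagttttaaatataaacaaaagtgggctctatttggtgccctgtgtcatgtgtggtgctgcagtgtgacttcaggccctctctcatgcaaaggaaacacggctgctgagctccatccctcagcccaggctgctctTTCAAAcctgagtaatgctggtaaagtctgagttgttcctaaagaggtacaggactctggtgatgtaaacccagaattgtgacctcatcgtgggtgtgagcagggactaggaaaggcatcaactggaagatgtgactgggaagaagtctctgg
Hmmr: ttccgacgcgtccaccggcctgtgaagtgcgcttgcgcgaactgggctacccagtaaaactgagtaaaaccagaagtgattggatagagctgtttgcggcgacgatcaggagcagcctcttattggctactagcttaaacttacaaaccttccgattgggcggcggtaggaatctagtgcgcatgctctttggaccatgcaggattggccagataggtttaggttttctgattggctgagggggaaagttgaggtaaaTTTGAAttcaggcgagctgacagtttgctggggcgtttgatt
Ttk: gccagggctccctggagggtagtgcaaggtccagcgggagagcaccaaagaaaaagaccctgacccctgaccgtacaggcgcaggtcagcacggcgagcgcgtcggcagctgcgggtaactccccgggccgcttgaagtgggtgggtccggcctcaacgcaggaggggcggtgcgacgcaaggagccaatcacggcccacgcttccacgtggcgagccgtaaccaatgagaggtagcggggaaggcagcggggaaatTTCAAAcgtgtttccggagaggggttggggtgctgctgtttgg
Ube2c: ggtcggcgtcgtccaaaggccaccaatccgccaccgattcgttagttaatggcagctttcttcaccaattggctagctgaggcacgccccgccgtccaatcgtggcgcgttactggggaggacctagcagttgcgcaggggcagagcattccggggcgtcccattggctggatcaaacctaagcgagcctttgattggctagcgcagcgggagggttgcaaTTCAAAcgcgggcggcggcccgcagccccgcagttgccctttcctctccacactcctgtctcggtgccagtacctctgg

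The CHR letters were found in 20 of 25 mitosis promoters in the table, 4 of 22 DNA replication promoters and 19.4% of all 27025 promoters. CCAAT, the binding letters of NF-Y, occurred on either strand in 20 of 25, 14 of 22 and 37.9%, with 6 copies in the Ube2c window and 5 in that of Hmmr. E2F letters (GGCGGGAA, GCGGGAAA or TTTGGCGC, either strand) were in 0 of 25 mitosis promoters, 11 of 22 DNA replication promoters and 3.31% of all. The strings GGCGGGAA and GCGGGAAA can overlap each other. A match is a description of letters and not a site. The 2 replication genes with the largest rise that hold an E2F match are shown with it in capitals, chosen after their values were seen. In Cdc6, at chr11:98907901-98908200 (plus), the match lies 138 bases before the RefSeq start. That start is 350 bases inside the gene as GENCODE M21 places it, so the Cdc6 window and its match lie within the gene. In Chaf1a, at chr17:56040166-56040465 (plus), the match is on the opposite strand, 47 bases before the start.
Cdc6: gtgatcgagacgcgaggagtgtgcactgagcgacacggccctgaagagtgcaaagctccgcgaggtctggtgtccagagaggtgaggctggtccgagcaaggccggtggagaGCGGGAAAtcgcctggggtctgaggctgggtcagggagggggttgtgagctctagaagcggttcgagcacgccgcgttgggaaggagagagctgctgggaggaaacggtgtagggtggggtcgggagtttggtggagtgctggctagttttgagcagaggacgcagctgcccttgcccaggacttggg
Chaf1a: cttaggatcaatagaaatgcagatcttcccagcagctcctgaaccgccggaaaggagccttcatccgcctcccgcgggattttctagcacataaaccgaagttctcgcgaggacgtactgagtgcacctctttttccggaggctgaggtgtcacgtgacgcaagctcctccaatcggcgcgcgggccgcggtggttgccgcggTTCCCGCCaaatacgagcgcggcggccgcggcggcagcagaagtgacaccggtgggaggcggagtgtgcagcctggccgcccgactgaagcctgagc

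DNA replication genes rose in 24 of 26, fell in none and had a median of 3.05, with 24 and 0 without naive B. Cdc6, which loads the replicative helicase, read 0.660, 0 and 0.832 CPM in naive and 79.5, 87.4 and 94.1 CPM in GC (log2 fold change 7.43, SE 0.67, adjusted p = 2.28e-06). Mcm10, which starts replication forks, read 0, 0 and 2.43 CPM in naive and 87.4, 94.9 and 99.4 CPM in GC (log2 fold change 6.90, SE 1.08, adjusted p = 0.000339). Rrm2, the regulated subunit of the enzyme that makes deoxynucleotides, read 6.93, 9.72 and 4.99 CPM in naive and 371, 359.8 and 338 CPM in GC (log2 fold change 5.62, SE 0.33, adjusted p = 1.51e-08). Its partner Rrm1 rose by 2.64 (log2, adjusted p = 2.69e-08). The 6 helicase subunit genes Mcm2 to Mcm7 all rose, by 2.58, 3.12, 2.83, 2.98, 3.39 and 2.74 on the log2 scale. Chaf1a, a histone chaperone subunit, read 5.14, 0 and 4.27 CPM in naive and 82.3, 89.3 and 102 CPM in GC (adjusted p = 0.000847). The members not called were Fen1, which was near 0 (1.43, 0 and 0.382 CPM in naive and 3.66, 2.54 and 2.97 CPM in GC) and was called higher without naive A and by DESeq2, and Cdt1 (111, 143 and 97.2 CPM in naive and 87.3, 91.6 and 95.7 CPM in GC, adjusted p = 0.122).

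**Figure D4:**
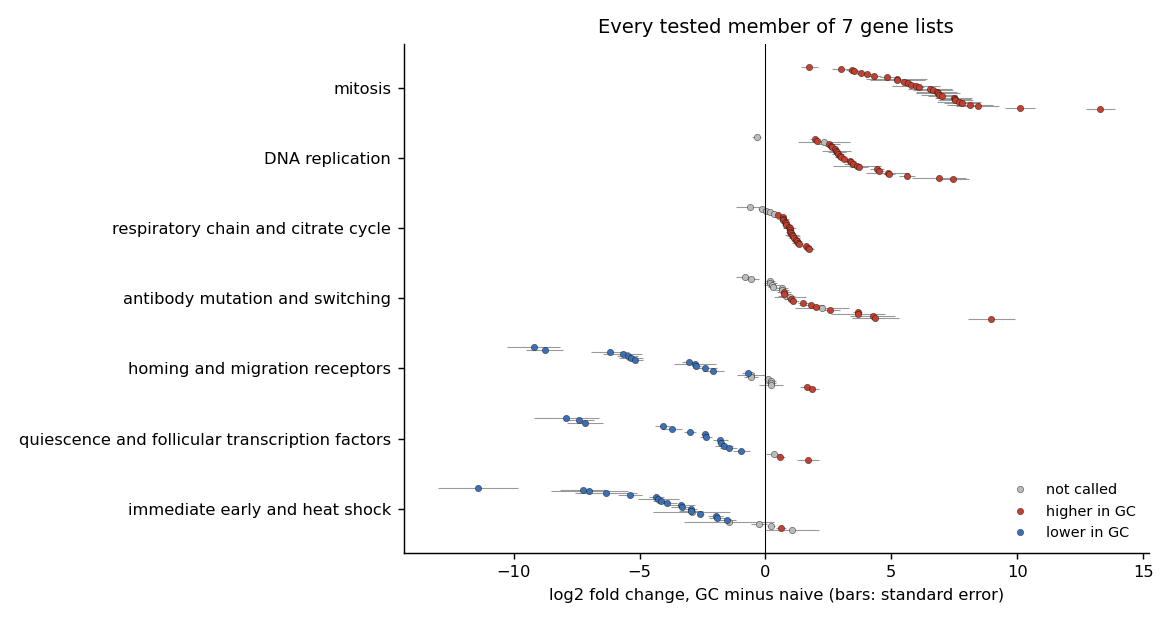
The log2 fold change of GC minus naive for every tested member of 7 lists, 1 point per gene with its standard error as a bar, red where higher, blue where lower and grey where not called. All 30 mitosis genes and 24 of 26 DNA replication genes lie to the right as called, while 13 of 21 homing genes and 17 of 23 immediate early and heat shock genes lie to the left as called.

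The genes that control entry into S phase rose in 13 of 21 and fell in 3. Among D-type cyclins, Ccnd3, the one GC cells require, read 51.8, 45.0 and 59.4 CPM in naive and 252, 271 and 254 CPM in GC (log2 fold change 2.32, SE 0.38, adjusted p = 0.000318). Ccnd2 read 32.6, 30.7 and 34.9 CPM in naive and 10.9, 10.7 and 6.10 CPM in GC (log2 fold change -1.83, SE 0.26, adjusted p = 8.21e-05). Ccnd1 was near 0 throughout, at 1.13, 0 and 1.32 CPM in naive and 0.732, 2.32 and 2.34 CPM in GC. Ccne2, an S phase cyclin, rose from 0.440, 0.816 and 2.22 to 37.0, 29.0 and 28.1 CPM (log2 4.76, adjusted p = 3.78e-05). The S phase activator E2f1 rose from 7.47, 5.91 and 5.65 to 92.4, 83.3 and 88.4 CPM (log2 3.79, adjusted p = 2.84e-09), and Mybl2 from 6.10, 2.45 and 4.30 to 87.4, 110.1 and 92.2 CPM (log2 4.49, adjusted p = 1.28e-07). The kinase inhibitor Cdkn2c, p18, rose as well, at 5.66, 8.43 and 7.80 CPM in naive and 92.2, 86.0 and 80.7 CPM in GC (adjusted p = 1.96e-08), while Rb1, the retinoblastoma gene, fell by 1.29 (log2, adjusted p = 6.19e-05).

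**Figure D5:**
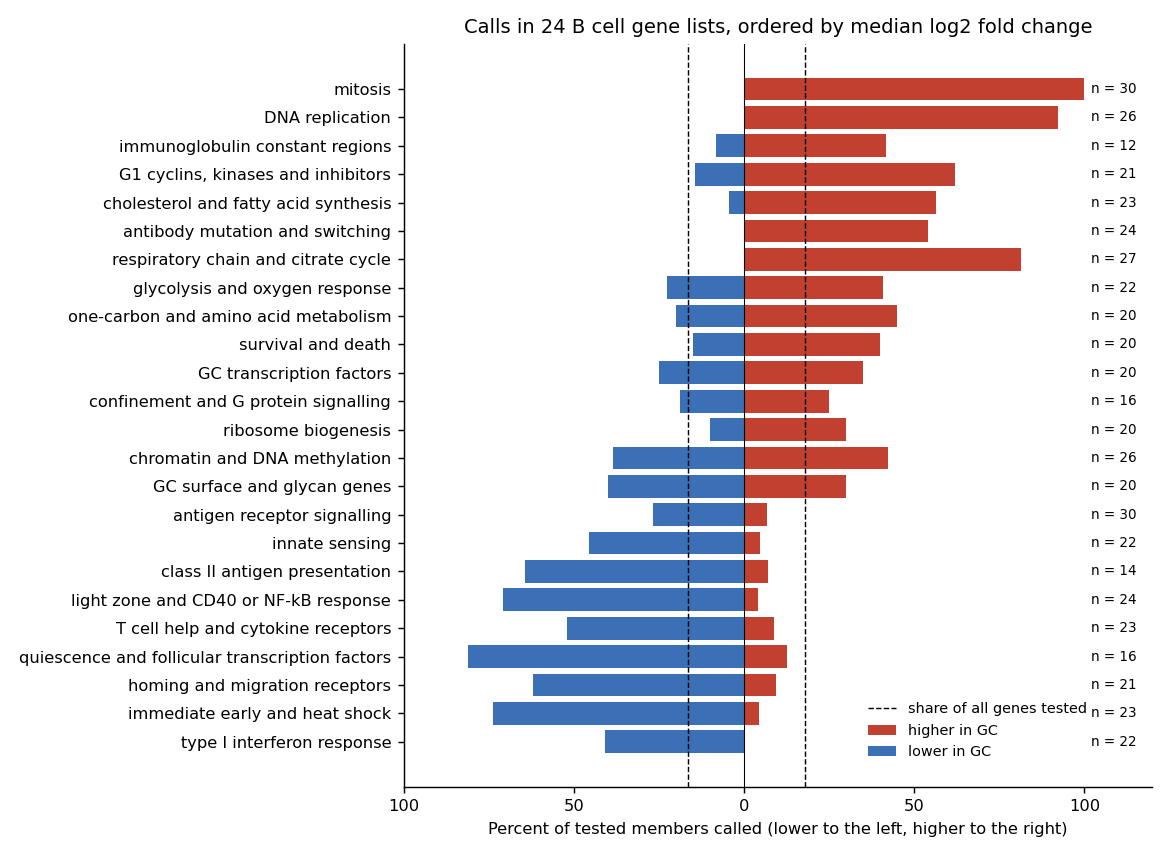
Percent of the tested members of 24 gene lists called lower (blue, to the left) and higher (red, to the right) in GC, with the number tested at the right. Lists are ordered by their median log2 fold change, and dashed lines mark the shares of all genes tested, 17.9% higher and 16.5% lower. Mitosis, DNA replication and the respiratory chain reach furthest to the right, and quiescence factors, immediate early and heat shock genes and the light zone list furthest to the left.

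Genes of mitochondrial respiration and the citrate cycle rose in 22 of 27 and fell in none, by small steps (median 0.96). Cox6c, a subunit of complex IV, read 78.2, 92.9 and 79.0 CPM in naive and 330.0, 275 and 225 CPM in GC (log2 fold change 1.73, SE 0.19, adjusted p = 5.78e-06). Cycs, the electron carrier cytochrome c, read 38.6, 45.1 and 35.3 CPM in naive and 129, 122 and 138 CPM in GC (log2 fold change 1.71, SE 0.17, adjusted p = 2.12e-06). Ndufa4, another complex IV subunit, read 51.3, 75.2 and 52.3 CPM in naive and 206, 165 and 179 CPM in GC (log2 fold change 1.62, SE 0.17, adjusted p = 4.81e-06). In complex II the subunits differed: Sdhb rose by 1.35 and Sdha was not called at 0.02 (log2, adjusted p = 6.71e-07 and 0.947). In 22 of the 27 every GC library lay above every naive library, beside 25.3% of all genes, and in Tfam, which was not called, every GC library lay below. Ucp2, an uncoupling protein of the inner membrane, was among the 10 largest rises in CPM outside the lists, at 512, 814 and 579.8 CPM in naive and 2161, 1839 and 1754 CPM in GC (adjusted p = 3.17e-05).

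Of 22 glycolysis and oxygen response genes 9 rose and 5 fell (3 fell without GC A). These are 40.9% and 22.7%, beside 17.9% and 16.5% of all genes. The glucose transporters Slc2a1 and Slc2a3 fell, with Slc2a1 at 68.6, 94.7 and 53.7 CPM in naive and 28.7, 22.8 and 17.6 CPM in GC (log2 fold change -1.65, SE 0.31, adjusted p = 0.000754). Slc2a3 was at 115, 50.4 and 83.1 CPM in naive and 10.6, 7.20 and 10.5 CPM in GC (log2 fold change -3.13, SE 0.52, adjusted p = 0.00038). Enzymes of the later steps rose: Tpi1 read 82.1, 154 and 69.9 CPM in naive and 397, 433 and 374 CPM in GC (log2 fold change 1.98, SE 0.39, adjusted p = 0.00116). Gapdh read 649, 824 and 451 CPM in naive and 2489, 2511 and 2062 CPM in GC (log2 fold change 1.88, SE 0.27, adjusted p = 8.70e-05), and Pgam1 rose by 1.75 (log2, adjusted p = 0.000106). The lactate exporter Slc16a1 rose by 2.25 and Pdk1 fell by 2.04 (log2, adjusted p = 0.00327 and 7.10e-05).

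In serine and one-carbon metabolism 9 of 20 rose and 4 fell (45% and 20%), beside 17.9% and 16.5% of all genes. The number that fell was 1 in the 6 libraries alone, 2 without GC A and 2 without GC C. Psat1, which makes serine, read 30.1, 22.4 and 22.5 CPM in naive and 211, 215 and 201 CPM in GC (log2 fold change 3.06, SE 0.17, adjusted p = 1.05e-08). Mthfd2, of the mitochondrial folate cycle, read 12.4, 22.4 and 15.8 CPM in naive and 119, 111 and 133 CPM in GC (log2 fold change 2.84, SE 0.21, adjusted p = 1.41e-07). Asns, the asparagine synthetase, read 0, 9.86 and 4.34 CPM in naive and 39.1, 35.0 and 35.3 CPM in GC and lost its call in the 6 libraries (adjusted p = 0.0217, then 0.137, range 3.55e-05 to 0.273). Cholesterol and fatty acid genes rose in 13 of 23 and fell in 1 (2 without naive B). The sterol enzymes Cyp51 and Msmo1 rose by 2.86 and 2.34 (log2, adjusted p = 2.40e-08 and 7.51e-08), with Msmo1 at 12.2, 11.2 and 16.6 CPM in naive and 68.8, 64.9 and 69.0 CPM in GC. Srebf2, the factor that drives sterol genes, was not called in the fit of all libraries, at 413, 552 and 389 CPM in naive and 364, 335 and 319 CPM in GC (adjusted p = 0.0676, range 0.0283 to 0.357). It was called lower with upper quartile scaling, with a filter of at least 1 CPM in 3 libraries and with the replicate block in all 15 libraries. Scd1, a fatty acid desaturase, read 1081, 769 and 1162 CPM in naive and 343, 289 and 292 CPM in GC (log2 fold change -1.71, SE 0.23, adjusted p = 5.53e-05).

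Chromatin genes divided evenly, 11 of 26 higher and 10 lower (42.3% and 38.5%), beside 17.9% and 16.5% of all genes, with a median of -0.02. Uhrf1, which guides maintenance methylation after replication, read 13.2, 9.65 and 15.5 CPM in naive and 359.6, 394 and 399.7 CPM in GC (log2 fold change 4.91, SE 0.21, adjusted p = 1.02e-09). Its partner enzyme Dnmt1 read 104, 62.9 and 135 CPM in naive and 603, 607 and 629 CPM in GC (log2 fold change 2.61, SE 0.23, adjusted p = 9.38e-07). The de novo methyltransferase Dnmt3a moved the other way, at 51.1, 37.1 and 57.1 CPM in naive and 5.73, 4.91 and 6.92 CPM in GC (log2 fold change -3.05, SE 0.20, adjusted p = 3.24e-08). Of the Polycomb subunits Ezh2 rose by 3.70, Eed by 1.49 and Suz12 by 0.90 (log2, adjusted p = 2.74e-08, 1.71e-05 and 6.84e-05), and the opposing demethylase Kdm6b fell by 2.84 (log2, adjusted p = 1.65e-05). Hmgb2, a DNA bending protein of dividing cells, read 48.0, 62.7 and 73.7 CPM in naive and 1987, 1781 and 1789 CPM in GC (log2 fold change 4.91, SE 0.21, adjusted p = 7.40e-10). Satb1, an organiser of chromatin loops, read 233, 230.4 and 255 CPM in naive and 16.3, 15.3 and 14.5 CPM in GC (log2 fold change -3.96, SE 0.14, adjusted p = 3.25e-10). Kdm5b, an H3K4 demethylase, read 42.4, 73.0 and 45.2 CPM in naive and 2.80, 2.46 and 3.03 CPM in GC (log2 fold change -4.28, SE 0.34, adjusted p = 2.68e-07).

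Of 20 ribosome biogenesis genes 6 were higher and 2 lower (30% and 10%), beside 17.9% and 16.5% of all genes, median 0.08. The number lower was 1 without GC A or without GC C. Nop58 rose by 1.57 and Ncl by 1.03, and Polr1b, of RNA polymerase I, fell by 1.17 (log2, adjusted p = 1.18e-05, 0.000116 and 0.00203). Ribosomal protein genes took 10.1%, 17.3% and 8.20% of counts in naive A, B and C and 9.22%, 8.73% and 8.09% in GC. The groups overlapped (two-sided exact permutation p = 0.3, n = 3 and 3), and naive B stood apart.

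Type I interferon response genes fell in 9 of 22 and rose in none, median -3.00. The share that fell was 40.9%, beside 16.5% of all genes, but the count depended on the libraries in the fit. It was 2 without GC A, 4 without GC B, 3 without GC C and 5 with no filter on low counts, and 14 in the 6 libraries alone and 20 in the 5 without naive B. Oas1a, which activates RNA decay in infected cells, read 22.2, 37.1 and 22.3 CPM in naive and 1.78, 1.31 and 1.25 CPM in GC (log2 fold change -4.23, SE 0.94, adjusted p = 0.00336). Mx2, a dynamin-like antiviral gene, read 10.7, 10.3 and 8.64 CPM in naive and 0, 0.218 and 0 CPM in GC. Its relative Mx1 had a log2 fold change of -5.84, and that of Mx2 was -6.94 (adjusted p = 0.0203 and 0.0201). Both calls were lost without GC A, without GC C and with no filter on low counts (range of adjusted p over all alternatives 0.000419 to 0.0669 for Mx1 and 0.000155 to 0.0771 for Mx2). Irf9, a subunit of the factor that interferon activates, fell by 1.57 (log2, adjusted p = 0.00382).

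Immediate early and heat shock genes, which cells also induce while they are being isolated, fell in 17 of 23 and rose in 1, median -2.95. Fosb, an AP-1 subunit, read 1158, 1348 and 257 CPM in naive and 6.50, 6.58 and 5.27 CPM in GC (log2 fold change -7.23, SE 0.91, adjusted p = 6.32e-05). Jun read 1587, 872 and 489 CPM in naive and 15.9, 20.2 and 33.9 CPM in GC (log2 fold change -5.40, SE 0.47, adjusted p = 1.43e-06), and Fos 2046, 1417 and 614 CPM in naive and 105, 150.0 and 145 CPM in GC (log2 fold change -3.35, SE 0.56, adjusted p = 0.000496). For these 3 genes naive C was the lowest naive library and still above every GC library. The nuclear receptor gene Nr4a2 had 7.58, 24.9 and 0.832 CPM in naive and no count in GC, at least 364-fold lower against a floor of 3 counts over the GC group, or at least 138-fold on the mean of naive A and C without naive B. The list took 1.64%, 1.25% and 0.682% of counts in naive A, B and C and 0.355%, 0.367% and 0.380% in GC (two-sided exact permutation p = 0.1, n = 3 and 3, the smallest possible). Sorting time and temperature are not given in the sources used here, and their part in this difference, or in those of other lists, was not tested. The constitutive chaperone Hspa8 was not called in the fit of all libraries, at 1544, 1637 and 1151 CPM in naive and 1768, 1616 and 1660.5 CPM in GC (adjusted p = 0.306, range 0.0263 to 0.571). It was called higher with limma voom and quality weights.

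Outside the lists, the largest rises in CPM included Actb and Cfl1, the genes of beta-actin and of cofilin, which cuts actin filaments. Actb read 3862, 3777 and 4914 CPM in naive and 8103, 6990.1 and 8071 CPM in GC (log2 fold change 0.88, SE 0.16, adjusted p = 0.000703). Cfl1 read 835, 1216 and 983 CPM in naive and 3361, 2921 and 2695 CPM in GC (log2 fold change 1.57, SE 0.17, adjusted p = 6.24e-06). Hnrnpa2b1 and Hnrnpa3, which encode RNA-binding proteins of splicing, rose by 1.57 and 1.99 (log2, adjusted p = 5.92e-05 and 9.57e-07). Among the largest falls were Shisa5, a gene of the endoplasmic reticulum and nuclear membrane linked to cell death, at 1860.2, 2403 and 2291 CPM in naive and 202, 225 and 179 CPM in GC (log2 fold change -3.44, SE 0.24, adjusted p = 9.59e-08). Ly6e, a small lipid-anchored surface protein, read 2045, 2831 and 2679 CPM in naive and 1138, 1063 and 929 CPM in GC (log2 fold change -1.27, SE 0.18, adjusted p = 8.37e-05), and Ddx5, an RNA helicase, fell by 0.84 (log2, adjusted p = 0.00447). Only called genes whose GC and naive libraries did not overlap entered these ranks, so the lack of overlap of these 7 genes is no result.

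Markers of other cell types were low in all 6 libraries, with exceptions in naive B and for genes that B cells share. Of 12 T cell markers only Lat and Lck exceeded 5 CPM in a library, and Cd3e and Cd8a had no count in any. Lck, a kinase also made by B cells, rose from 65.4, 70.8 and 56.3 to 173, 159.6 and 163 CPM (adjusted p = 7.56e-05) and set the sum of the list. Erythroid markers summed to 306 CPM in naive B against 3.57 to 29.2 CPM in the other naive libraries and 4.37 to 7.68 CPM in GC, nearly all of it haemoglobin. Neutrophil markers summed to 49.9 CPM in naive B, with Mpo, a granule enzyme, at 0.660, 26.8 and 0 CPM in naive libraries A, B and C. Macrophage and monocyte markers summed to 9.04 to 36.0 CPM in naive, highest in naive C, and 18.3 to 24.7 CPM in GC. Of 9 stromal markers 7 had no count in any library, and only Pecam1, which B cells also carry, was above 5 CPM, at 289, 275 and 354 CPM in naive and 44.0, 35.6 and 42.9 CPM in GC (adjusted p = 0.000105). The part of other cells in the differences between GC and naive libraries was not tested.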

How the data were processed

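Poly(A) RNA of sorted splenic B cells was sequenced from directional libraries. The authors deposited 1 table of raw counts per gene for all 15 libraries, and per the submitters' processing notes STAR 2.7.10a and featureCounts 2.0.6 were used with mm10 (GRCm38). The strand setting and the handling of reads that fit several genes are not given in the sources used here, so overlapping, antisense and near-identical genes are uncertain. Gene names came from GENCODE M21 for 54809 of 54838 genes.

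GC was compared with naive by edgeR 4.0.16 (R 4.3.3): filterByExpr, TMM scaling, and the quasi-likelihood test (glmQLFit and glmQLFTest) in a fit of all 15 libraries, with Benjamini-Hochberg adjustment over 17144 genes and a threshold of 0.05. CPM values use TMM scaling. Alternatives were the 6 libraries alone, DESeq2 1.42.0, limma 3.58.1 (voom with quality weights), other scalings and filters, a replicate block, leaving out each library and, added after seeing the data, 5 libraries without naive B. Scripts were tested on simulated data. For shares of counts, exact permutation tests were two-sided (SciPy 1.17.1).

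The comparison and the gene lists were chosen with earlier results of these data known. From each list, up to 4 called members with the largest change in each direction and a mean of at least 5 CPM were eligible to be named, of which the text gives a part. The 10 largest rises and falls in CPM, and the naive library check at 8-fold, followed their own ranks. Rises and falls were ranked only among called genes whose GC and naive libraries did not overlap. The letters A, B and C were not treated as pairs. Some members of the lists are not reported here by name.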

Additional observations from a re-analysis of the deposited data

How the results depend on the processing

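Over the alternatives run, the counts of genes called moved by more than 1.5 times in 4 cases. The 6 libraries alone gave 1807 lower genes, against 2835 in the fit of all libraries. A replicate block by letter in the 6 libraries gave 1720 higher and 1235 lower, and in all 15 libraries 3298 higher and 2901 lower. Same-letter libraries did not deviate together (correlations of deviations from -0.0524 to -0.00491). With 3 libraries per group and naive B apart from the others, these correlations cannot decide whether the letters are pairs. Leaving out 1 library at a time gave 2663 to 4261 higher and 1849 to 3364 lower genes, with 1849 without GC A. The cause was not tested. Of the genes called, 2661 kept their call in every alternative run.

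Of the 200 named genes fitted, 167 were called, and 23 of these lost the call in some alternative. For 12 that was with the replicate block in the 6 libraries and no other alternative, with adjusted p of 0.129 for Exo1, 0.111 for Lcp2, 0.140 for Tlr9, 0.121 for Tlr2, 0.0722 for Cd74, 0.0962 for Chaf1a, 0.0964 for Ctla4, 0.0859 for Prf1, 0.0658 for Nt5e, 0.0532 for Mcm10, 0.0518 for Polr1b and 0.0510 for Ccr6. Ighg2c lost it with quality weights (0.0622), Hspa1a with quality weights, in the 5 libraries without naive B and with the block (0.0532 to 0.0664), and Col6a4 and Cpne4 also with the block (0.222 and 0.432). The other 7 (Asns, Bcl2l1, Fam72a, Jchain, Mx1, Mx2 and Ung) are given with their ranges beside their values. Another 15 genes, not called in the fit of all libraries, were called in some alternative. Among them were Trim12a, Trim5 and Gm1966 without naive B (Gm1966 also by DESeq2), Nfil3 and Mpo without naive C, and Tmem184b without naive A or without naive B.

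No called gene of the 200 changed sign, and 10 that were not called did. For Bax the log2 fold change was 0.20 with quality weights, 0.13 in the 5 libraries without naive B, and -0.52 to 0.11 with 1 library left out. For Sdha it was -0.0382 with upper quartile scaling, -0.11 in the 5 libraries, and -0.14 to 0.26 with 1 library left out. For Atf3 it was 1.22 with quality weights, 1.01 in the 5 libraries, and -3.48 to 0.99 with 1 library left out. For Nfil3 it was 1.72 with quality weights, 1.67 in the 5 libraries, 0.20 with the replicate block in the 6, and -2.68 to 1.65 with 1 library left out. For Lat it was 0.54 with quality weights, 0.75 in the 5 libraries, 0.027 with the block, and -0.98 to 0.73 with 1 library left out. For Csnk1e and Trim5 it was 0.79 and 0.31 with the block, and -1.38 to 1.73 and -1.43 to 0.16 with 1 library left out. With 1 library left out it ranged from -2.21 to 0.69 for Tmem184b, from -0.32 to 0.026 for Mcl1 and from -0.89 to 0.0051 for Sdc1. With 1 library left out, the positive values of Atf3, Nfil3 and Lat came without naive B, and those of Csnk1e, Tmem184b and Trim5 without naive C. The thin low range of naive A and B limits statements on genes near 0 in naive cells.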

Other observations

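Genes of marginal zone and B-1 cells, B cell subsets that the sort of naive cells could have held, fell in 6 of 12 tested members and rose in 1 in GC against naive cells, median -1.13, beside 16.5% and 17.9% of all genes. Notch2, the receptor that directs cells to the marginal zone, read 316, 294 and 386 CPM in naive and 9.87, 11.8 and 13.0 CPM in GC (log2 fold change -4.84, SE 0.24, adjusted p = 3.31e-09). Cd1d1, which presents lipids and is high on marginal zone cells, read 58.3, 37.7 and 79.9 CPM in naive and 0.382, 1.20 and 1.19 CPM in GC (log2 fold change -5.98, SE 0.80, adjusted p = 4.73e-05). In both cases every GC library lay below every naive library. S1pr3, a receptor of marginal zone cells, was not called, at 23.6, 32.3 and 33.2 CPM in naive and 34.2, 28.3 and 41.3 CPM in GC (adjusted p = 0.464). The 12 genes summed to 1272 to 1980 CPM in naive and 456 to 596 CPM in GC, and follicular cells also express Notch2 and Cr2.

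Flt3, a cytokine receptor of progenitors and dendritic cells that stood in the dendritic cell list, read 5.28, 5.30 and 3.05 CPM in naive and 47.8, 44.5 and 44.9 CPM in GC (log2 fold change 3.33, SE 0.81, adjusted p = 0.00696), while Clec9a, a marker of one dendritic cell subset, had no count in any of the 6 libraries. Ctla4, the inhibitory receptor of T cells, had 2 counts in the naive group and 2.99, 3.49 and 1.98 CPM in GC, a ratio of 133 with a counting interval of 37.0 to 1102. That ratio takes in the depth of naive A and B, whose low range was thin, so it and its interval may be too high. Prf1, the pore-forming protein perforin, read 12.8, 26.2 and 7.35 CPM in naive and 0.318, 0 and 0.791 CPM in GC (adjusted p = 0.000638), with Klrk1 at no count in any library.

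A few loci differed between naive libraries in an all-or-none way. Col6a4, a collagen gene (chr9:105989454-106096783), read 195, 222 and 0 CPM in naive libraries A, B and C and at most 0.330 CPM in GC, and its highest level in the 9 cultured libraries was 0.232 CPM. Cpne4, nearby on the same chromosome (chr9:104547286-105034544), read 33.0, 34.1 and 0 CPM in naive and at most 0.396 CPM in GC (named after its values were seen). Both were called lower in GC (adjusted p = 0.00251 and 0.00722), and naive C, at 0, did not separate from GC for either gene. Both calls were lost with limma voom and quality weights and in the 5 libraries without naive B, and that of Cpne4 also in the 6 libraries alone. With a filter of at least 1 CPM in 3 libraries Col6a4 was not tested. No cause was tested.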
